A study of Homo sapiens with 11 samples.

Results

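The genes described are the 7 insulin-like growth factor (IGF) binding proteins, IGFBP1 to IGFBP7, and the IGF receptors, IGF1R and IGF2R. They were chosen by gene symbol, and all 9 were found among the 28252 genes listed for RNA in RT4 cells and among the 26237 promoters listed for H3K4me3 in BEAS-2B cells. RT4 is a human bladder cancer cell line, and BEAS-2B is an immortalized line of human bronchial epithelial cells. In both lines, UT cells had no nickel, and Ni-E cells had 6 weeks with NiCl2 at 100 μM. RT4 Ni-W cells were exposed in the same way and then grown without nickel for 2 weeks, whereas BEAS-2B Ni-W cells were a population expanded from a single colony and kept without nickel for more than 6 months. RNA-Seq of RT4 cells had 2 libraries per condition, and H3K4me3 ChIP-Seq of BEAS-2B cells had 1, so these H3K4me3 differences have no replicate check. The comparisons ask which genes differ during exposure (Ni-E vs UT), after its end (Ni-W vs UT), and from exposure to washout (Ni-W vs Ni-E).

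IGF1 and IGF2 are secreted growth factors that signal through IGF1R, a receptor tyrosine kinase at the cell surface, to promote growth and survival. IGFBP1 to IGFBP6 bind both ligands with high affinity, prolong their life outside the cell and control how much reaches the receptor, while proteases cut the binding proteins and release the ligand. IGFBP7 binds IGFs weakly. IGF2R, the cation-independent mannose 6-phosphate receptor, takes up IGF2 for degradation and sorts lysosomal enzymes. Nickel ions are known to stabilise hypoxia-inducible factor (HIF), and IGFBP1 and IGFBP3 are known genes of the hypoxia response.

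The 9 genes lie on 7 chromosomes, with 2 pairs of neighbours (GENCODE version 44 on GRCh38). IGFBP1 (chr7:45888360-45893660, plus strand) and IGFBP3 (chr7:45912245-45921874, minus strand) are adjacent protein-coding genes, 18584 bases apart. IGFBP2 (chr2:216632828-216664436, plus strand) and IGFBP5 (chr2:216672105-216695549, minus strand) are likewise adjacent and 7668 bases apart. The others are IGFBP4 (chr17:40443450-40457725, plus), IGFBP6 (chr12:53097436-53102345, plus), IGFBP7 (chr4:57030773-57110385, minus), IGF1R (chr15:98648539-98964530, plus) and IGF2R (chr6:159969082-160113507, plus).

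The promoters of 4 of these genes are shown because they include promoters below and above the median number of CG dinucleotides. They also include those of genes with the largest RNA differences in RT4 cells or the highest H3K4me3 in BEAS-2B cells. Each sequence is the 250 bases before the RefSeq start on GRCh38.p14, written on the strand of the gene, with CG dinucleotides in capitals. The RefSeq starts of IGFBP3 and IGFBP6 differ from the GENCODE starts given above. The IGFBP3 stretch therefore lies inside the GENCODE gene, and most of the IGFBP6 stretch does so as well. Whether the deposited promoters use the RefSeq starts is not given in the sources used here. IGFBP5 (chr2:216695550-216695799, minus) and IGFBP6 (chr12:53097417-53097666, plus) have slightly fewer CG than the median promoter, while IGFBP3 (chr7:45921273-45921522, minus) and IGF1R (chr15:98648289-98648538, plus) have many.
IGFBP5: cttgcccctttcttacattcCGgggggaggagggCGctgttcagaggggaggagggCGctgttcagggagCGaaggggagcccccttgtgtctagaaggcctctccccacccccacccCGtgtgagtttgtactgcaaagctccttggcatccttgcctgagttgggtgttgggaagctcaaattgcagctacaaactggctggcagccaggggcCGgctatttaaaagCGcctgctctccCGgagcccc
IGFBP6: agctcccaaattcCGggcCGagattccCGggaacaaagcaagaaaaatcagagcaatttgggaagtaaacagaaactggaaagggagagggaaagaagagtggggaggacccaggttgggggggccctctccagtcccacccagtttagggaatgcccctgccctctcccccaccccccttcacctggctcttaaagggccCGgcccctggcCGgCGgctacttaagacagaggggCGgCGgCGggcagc
IGFBP3: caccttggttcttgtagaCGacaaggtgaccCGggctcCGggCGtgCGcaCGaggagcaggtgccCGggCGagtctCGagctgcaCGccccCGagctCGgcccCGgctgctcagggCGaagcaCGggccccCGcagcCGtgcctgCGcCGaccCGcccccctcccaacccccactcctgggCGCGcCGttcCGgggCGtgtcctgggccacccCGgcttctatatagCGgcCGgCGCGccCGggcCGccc
IGF1R: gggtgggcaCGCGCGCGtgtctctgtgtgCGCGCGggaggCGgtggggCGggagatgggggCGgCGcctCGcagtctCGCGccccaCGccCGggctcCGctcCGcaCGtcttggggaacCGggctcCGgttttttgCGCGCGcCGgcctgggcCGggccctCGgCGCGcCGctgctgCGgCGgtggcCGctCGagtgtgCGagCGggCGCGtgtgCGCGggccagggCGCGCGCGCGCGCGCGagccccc

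These stretches held 8 CG for IGFBP5, 9 for IGFBP6, 32 for IGFBP3 and 48 for IGF1R, against a median of 11 over 35116 promoters. The IGF1R promoter had more CG than 99.7% of all promoters, and the IGFBP3 promoter more than 90.5%. Those of IGFBP6 and IGFBP5 had more than 45.9% and 43.7% of them. Of the others, the promoter of IGF2R held 33, that of IGFBP4 held 24, and the 3 RefSeq starts of IGFBP2 held 7, 22 and 4. The letters ACGTG, which are among the forms of the core of the HIF binding motif, were searched on both strands. The windows also included the 50 bases after the start, and a palindromic CACGTG counts on each strand. Other forms of the core were not searched. ACGTG occurred once at 1 of the 3 IGFBP2 starts, once at IGF1R and 6 times at IGF2R. These are 3 of the 9 windows of the 7 genes matched, against 21.4% of all promoter windows. The exact letters TATAAA, a form of the TATA box, occurred in IGFBP4 alone among the 7 and in 11.5% of all promoters, and variants were not searched.

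The RT4 libraries had a total of 17075833 to 27736454 estimated counts, and in each condition replicate 2 was the deeper library. All 15 urothelial markers examined reached at least 1 TPM (a level scaled to transcript length and library depth) in some library, with a summed level of 12073 to 15283 TPM. Of the fibroblast markers 1 of 10 did so (COL3A1), with sums of 1.17 to 5.51 TPM, and COL1A2, DCN and THY1 were listed at 0 in every library. In each case 1 of 5 endothelial (VWF) and leukocyte (CD68) markers reached 1 TPM, while TEK and CD3E were at 0. Of the 15 urothelial markers, 3 were called lower in Ni-E than in UT cells (UPK1A, KRT13 and KRT20) and 2 in Ni-W cells (KRT13 and KRT20), none was called higher, and the part of this in the results below was not tested. KRT13, for example, was at 34.5 and 37.4 TPM in UT cells, 5.36 and 5.86 with nickel and 6.45 and 6.48 after washout. Since these are bulk samples, fewer cells of a type and less RNA per cell cannot be told apart.

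Of the 9 genes, 8 passed the expression filter and were tested in RT4 cells, and 1 was called in any comparison. IGFBP5 rose 2.58-fold in Ni-W cells relative to UT cells, while Ni-E cells were at 1.02-fold of UT cells. IGFBP6 showed the largest fold differences, 5.09-fold in Ni-E cells and 6.14-fold in Ni-W cells, and IGFBP3, the most abundant of the genes, differed by 1.66-fold and 1.92-fold, but these did not pass the test. Of the remaining tested genes, IGFBP7 was 2.39-fold lower in Ni-E than in UT cells, again without passing the test, and the others differed from UT cells by at most 1.63-fold. IGFBP1 was at the limit of detection. A call is an adjusted p below 0.05 with at least a 1.5-fold change, in edgeR's quasi-likelihood test with Benjamini-Hochberg adjustment over the 14502 genes tested. During exposure (Ni-E vs UT), 0 of the 8 were called, against 2.17% of all genes tested. After its end (Ni-W vs UT), 1 of 8 was called, against 0.6% of all genes, and from exposure to washout (Ni-W vs Ni-E) 0 of 8, against 0%. At an unadjusted p below 0.05 there were 3, 3 and 1 of the 8, against 12.2%, 9.12% and 5.57% of all genes. DESeq2 called 1, 3 and 1 of the 8, against 5.38%, 3.33% and 1.12% of all genes, and limma on log2(TPM + 1) called none. With a block for the replicate number, a pairing that the labels do not state, edgeR called 4, 3 and 1 of the 8. The shares of all genes were then 12.6%, 8.57% and 4.52%. The median log2 fold change of the 8 genes was 0.29, 0.30 and 0.22, beside −0.01, 0.00 and 0.02 over all genes tested.

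**Figure D1:**
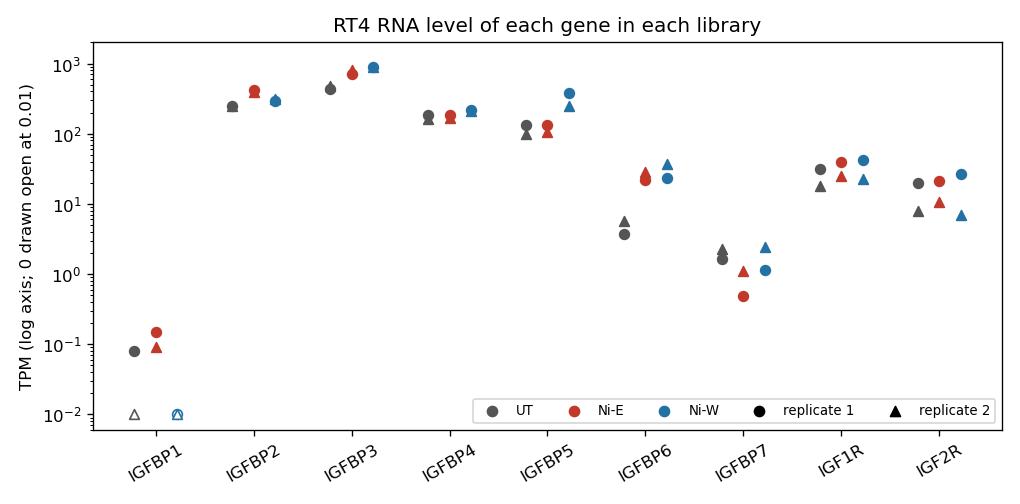
RNA level of each gene in each RT4 library, in TPM on a log axis, with grey for UT, red for Ni-E and blue for Ni-W cells, circles for replicate 1 and triangles for replicate 2; libraries at 0 are drawn open at 0.01. IGFBP3 is the highest in every library, between 436 and 902 TPM, and the blue points of IGFBP5 stand above its grey and red points.

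IGFBP5, a binding protein that also attaches to the extracellular matrix, is encoded by a single listed transcript of 6239 bases. Its level was 133 and 99.6 TPM in UT cells, 133 and 105 in Ni-E cells, and 377 and 250 in Ni-W cells. Both Ni-W libraries were thus above all 4 others, and the UT and Ni-E libraries overlapped. The estimated counts behind these values were 7936 and 9794, 7951 and 10661, and 19479 and 25211. The log2 fold change for Ni-W vs UT was 1.37 ± 0.17 (SE, n = 2 per group; adjusted p = 0.0466, edgeR's quasi-likelihood test), and within replicate 1 and replicate 2 alone the difference was 2.63-fold and 2.53-fold. For Ni-W vs Ni-E the difference was of like size, 1.34 ± 0.17 (SE), but adjusted p was 0.166, with no gene called in that comparison. For Ni-E vs UT it was 0.03 ± 0.17 (SE; adjusted p = 0.997, edgeR). DESeq2 called IGFBP5 for Ni-W vs UT (adjusted p = 4.35e-07, DESeq2) and for Ni-W vs Ni-E (adjusted p = 2.97e-06, DESeq2). The edgeR call for Ni-W vs UT was close to the threshold. It was lost whenever any 1 of the 6 libraries was left out, with log2 fold changes of 1.27 to 1.47. The call was also lost when only the UT and Ni-W libraries were used (adjusted p = 0.209, edgeR), where 0 genes were called in all.

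Over the 6 libraries, the genes whose pattern was most like that of IGFBP5 were GBP1, TNFRSF1B and PARP14, among 11140 genes with a mean of at least 5 CPM (counts scaled to library depth). Their distances to it, taken between gene-centred log2 CPM values, were 0.278, 0.316 and 0.469. GBP1, a guanylate-binding protein, and PARP14 are known as interferon-responsive genes, and TNFRSF1B is a receptor for tumour necrosis factor.

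IGFBP6, which prefers IGF2 over IGF1 as its ligand, was low in UT cells, at 3.71 and 5.78 TPM. It was at 21.9 and 28.3 TPM in Ni-E cells and at 23.3 and 37.0 TPM in Ni-W cells, so that all 4 libraries of cells that had met nickel were above both UT libraries. The estimated counts were small in UT cells, 28 and 72, beside 152 to 469 in the other libraries. The log2 fold change was 2.35 ± 0.50 for Ni-E vs UT (SE, n = 2 per group; adjusted p = 0.0940, edgeR) and 2.62 ± 0.50 for Ni-W vs UT (SE; adjusted p = 0.115, edgeR). Within replicate 1 and replicate 2, Ni-E cells were 6.05-fold and 4.67-fold above UT cells, and Ni-W cells 5.81-fold and 6.40-fold. DESeq2 called both differences (adjusted p = 0.000202 and 3.21e-05). Ni-W and Ni-E cells overlapped, with a log2 difference of 0.27 ± 0.46 (SE).

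IGFBP3, the main carrier of IGFs in the circulation, was at 436 and 471 TPM in UT cells, 714 and 813 in Ni-E cells, and 898 and 902 in Ni-W cells. These ranges did not overlap in TPM. In CPM, the Ni-E libraries (946 and 1207) and the Ni-W libraries (1070 and 1407) overlapped. The mean of IGFBP3 in Ni-W cells was 900 ± 2.96 TPM (SD, n = 2), above 99.4% of all listed genes, and 1238 ± 238 CPM. For Ni-W vs Ni-E its log2 fold change was 0.20 ± 0.24 (SE) and did not pass the test. The log2 fold change was 0.74 ± 0.24 for Ni-E vs UT (SE; adjusted p = 0.273, edgeR) and 0.94 ± 0.24 for Ni-W vs UT (SE; adjusted p = 0.227, edgeR), and DESeq2 called the latter (adjusted p = 0.0465). Within the replicates, Ni-E cells were 1.68-fold and 1.65-fold, and Ni-W cells 1.90-fold and 1.92-fold, above UT cells.

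IGFBP2, a binding protein found in many tumours, was highest in Ni-E cells, with 423 and 394 TPM against 251 and 246 in UT cells and 295 and 316 in Ni-W cells. The conditions did not overlap in TPM. Neither the 1.63-fold difference for Ni-E vs UT (log2 0.70 ± 0.22, SE; adjusted p = 0.234, edgeR) nor that of −0.43 ± 0.22 (SE, log2) for Ni-W vs Ni-E passed the test. Its neighbour IGFBP5 was at its highest in Ni-W cells instead.

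IGFBP4, which mainly restrains IGF action and is cut by the protease PAPPA, was among the least variable of the abundant binding proteins. It was at 182 and 163 TPM in UT cells, 185 and 168 in Ni-E cells, and 215 and 208 in Ni-W cells. The UT and Ni-E libraries overlapped, and the log2 fold change for Ni-W vs UT was 0.25 ± 0.18 (SE; adjusted p = 0.943, edgeR).

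IGFBP7, the low-affinity member, was at 1.63 and 2.27 TPM in UT cells, 0.49 and 1.10 in Ni-E cells, and 1.13 and 2.42 in Ni-W cells. Only 6 to 50 estimated counts stood behind each value. The Ni-E libraries were below both UT libraries, with a log2 fold change of −1.26 ± 0.68 (SE; adjusted p = 0.620, edgeR). IGFBP1, a binding protein made mainly by liver, was at 1 and 0 estimated counts in UT cells, 2 and 2 in Ni-E cells and 0 and 0 in Ni-W cells. None of these exceeds 3 counts per library, taken as the floor, so that no fold is given, and any difference was not detectable at this depth.

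The receptors were below IGFBP2 to IGFBP5 in UT cells, and varied more between replicates than between conditions. IGF1R was at 31.8 and 18.1 TPM in UT cells, 39.0 and 25.4 in Ni-E cells, and 42.8 and 22.5 in Ni-W cells. IGF2R was at 20.1 and 7.89 TPM, 21.5 and 10.5, and 26.9 and 7.01, respectively. All conditions overlapped for both genes. The log2 fold changes of IGF1R were 0.37 ± 0.30 for Ni-E vs UT and 0.32 ± 0.30 for Ni-W vs UT (SE; adjusted p = 0.843 and 0.999, edgeR), and those of IGF2R 0.21 ± 0.62 and 0.17 ± 0.62 (SE; adjusted p = 0.997 and 0.999, edgeR). Within replicate 1 and replicate 2, IGF1R in Ni-E cells was 1.26-fold and 1.34-fold above UT cells, and in Ni-W cells 1.24-fold and 1.25-fold.

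**Figure D2:**
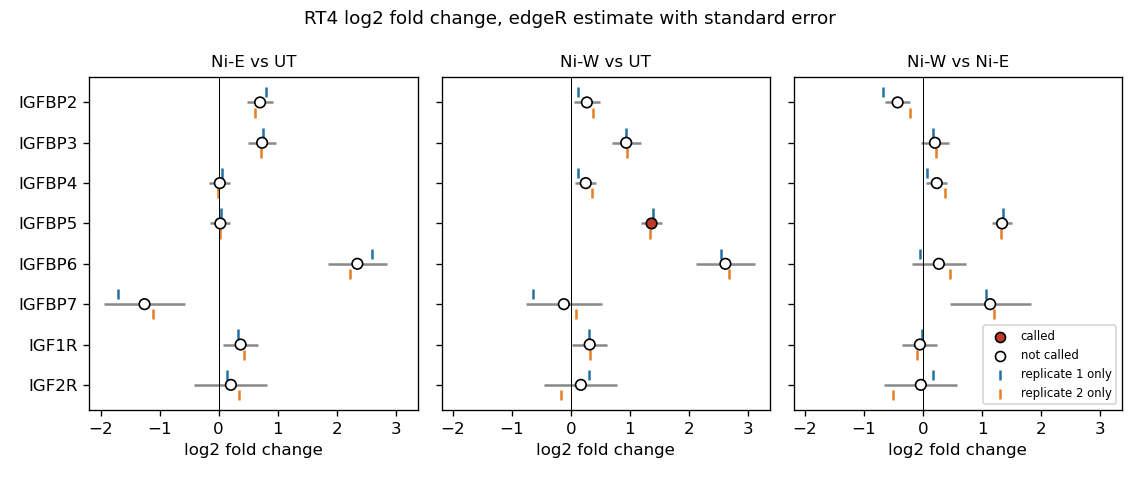
RT4 log2 fold changes of the 8 tested genes in the 3 comparisons, with circles for the edgeR estimate, bars for its standard error, a red circle for a called gene, and blue and orange ticks for the difference within replicate 1 and within replicate 2. IGFBP5 in Ni-W vs UT, at 1.37, is the single red circle; both ticks of IGFBP6 lie above 2 in each comparison with UT cells.

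This spread between replicates moved with transcript length. For genes with transcripts over 8 kb, the median ratio of CPM in replicate 2 to that in replicate 1 was 0.758 in UT, 0.770 in Ni-E and 0.625 in Ni-W cells, and for those under 2 kb it was 1.29, 1.19 and 1.42. IGF2R, with 14042 bases, had ratios of 0.471, 0.545 and 0.342. IGF1R, at about 12234 bases, had 0.685, 0.729 and 0.690. The short transcript of IGFBP6, 947 bases, had 1.88, 1.45 and 2.07, and IGFBP5 had 0.902, 0.886 and 0.869. The part of this in the comparisons was not tested, and the values within each replicate are therefore given above.

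**Figure D3:**
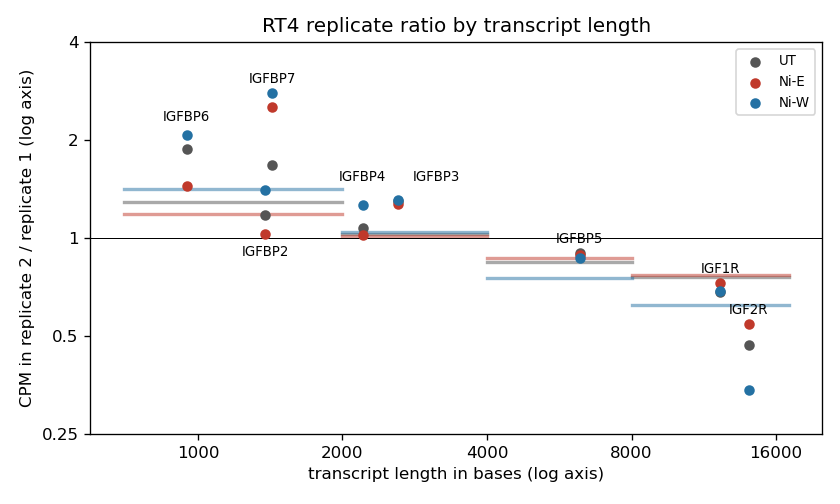
Ratio of CPM in replicate 2 to replicate 1 for each tested gene against its transcript length, both on log axes, with grey for UT, red for Ni-E and blue for Ni-W cells; horizontal bars give the median of all tested genes in 4 length classes. The long IGF2R lies at 0.342 to 0.545, below the bars of its class, and the short IGFBP6 at 1.45 to 2.07, above them.

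Scaling to transcript length, as TPM does, does not remove this spread between replicates. IGF2R, for example, was at 20.1 TPM in UT replicate 1 and 7.89 in UT replicate 2. On the TPM scale, the order in UT cells was IGFBP3, IGFBP2, IGFBP4, IGFBP5, IGF1R, IGF2R, IGFBP6, IGFBP7 and IGFBP1. Of neighbours in this order, the libraries of IGF1R and IGF2R overlapped. In Ni-E cells, IGFBP6 stood between IGF1R and IGF2R and overlapped with the former. In Ni-W cells IGFBP5 was second by its mean, 314 ± 89.9 TPM (SD, n = 2), and overlapped with IGFBP2, 305 ± 14.7 TPM, while IGF1R, IGFBP6 and IGF2R overlapped with one another. The level of the 7 binding proteins together was 1008 and 988 TPM in UT cells, 1477 and 1510 in Ni-E cells, and 1809 and 1715 in Ni-W cells, with no overlap between conditions. IGFBP3 made up 43.3% to 53.8% of this sum, and the share of IGFBP5 was 6.96% to 13.2% in UT and Ni-E cells and 14.6% and 20.9% in Ni-W cells.

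Some annotated genes share sequence with these loci. IRAIN, a noncoding RNA within IGF1R, had 43 to 155 estimated counts per library, against 3543 to 5120 for IGF1R. IGFBP7-AS1, which starts head to head with IGFBP7, had 0 or 1, AIRN in IGF2R had 0, and SOAT2, next to IGFBP6, had 0 or 1. POLR2B, which lies within 2 kb of IGFBP7 or overlaps it, had 2295 to 3046, against 6 to 50 for IGFBP7. Whether the counting used strand is not given in the sources used here, and without it reads of a gene and its antisense partner cannot be told apart.

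Around these genes, a list of 73 other genes of the IGF axis was compiled, and 63 of them were tested. The list was made with earlier results of these data known, so its comparison with the share of all genes is not independent. Relative to UT cells, 4 genes were called in Ni-E and 2 in Ni-W cells, each of them higher, against 2.17% and 0.6% of all genes tested, and 0 were called between Ni-W and Ni-E cells. The median log2 fold changes of the 63 genes were 0.15, 0.12 and −0.02. None of 10 receptor substrates and adaptors such as IRS1, of 22 genes of the PI3K-AKT-mTOR arm, or of 8 genes of mannose 6-phosphate sorting was called in any comparison. Among the proteases that cut binding proteins and their inhibitors, 2 of 8 tested rose in Ni-E cells and 1 of 8 in Ni-W cells. STC2, a secreted inhibitor of PAPPA, was at 1.04 and 1.05 TPM in UT cells, 25.4 and 24.3 in Ni-E cells, and 8.54 and 7.57 in Ni-W cells. It thus rose 23.4-fold in Ni-E cells (log2 4.55 ± 0.22, SE; adjusted p = 0.00605, edgeR) and was still 7.38-fold higher in Ni-W cells (adjusted p = 0.0131, edgeR). HTRA1, a secreted protease that cuts IGFBP5, rose 3.65-fold in Ni-E cells (adjusted p = 0.0280, edgeR) and was 2.39-fold above UT cells in Ni-W cells without passing the test (adjusted p = 0.115, edgeR).

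CAV1, the caveolar coat protein listed among surface partners, rose 7.57-fold in Ni-E cells and 7.05-fold in Ni-W cells (adjusted p = 0.0149 and 0.0252, edgeR). IGF2BP2, which binds IGF2 mRNA, was at 0.15 and 0.02 TPM in UT cells, 4.68 and 3.77 in Ni-E cells, and 3.32 and 1.68 in Ni-W cells. It rose 58.1-fold in Ni-E cells (log2 5.86 ± 0.68, SE; adjusted p = 0.0228, edgeR), a size that rests on 6 and 1 estimated counts in UT cells against 188 and 257 in Ni-E cells. Ni-W cells were just outside the threshold (adjusted p = 0.0530, edgeR). The ligands, PAPPA and PAPPA2 were looked at after their values were seen. PAPPA, which STC2 inhibits, had 0 and 1 estimated counts in UT, 9 and 7 in Ni-E and 20 and 6 in Ni-W cells. Its level was at most 0.22 TPM. IGF1 was at 0 to 0.02 TPM and INS was listed at 0. IGF2 was at 0.62 and 0.40 TPM in UT, 0.51 and 0.72 in Ni-E and 1.40 and 1.39 in Ni-W cells (Ni-W vs UT log2 1.41 ± 0.37, SE; adjusted p = 0.230, edgeR). PAPPA2, a protease that cuts IGFBP3 and IGFBP5, was at 6.21 and 3.18 TPM in UT cells, 0.59 and 0.20 in Ni-E cells and 0.62 and 0.22 in Ni-W cells (adjusted p = 0.0507 and 0.0841 against UT, edgeR).

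In BEAS-2B cells, H3K4me3, a histone mark of active promoters, was given for each gene in RPKM, a read count scaled to promoter length and library depth, within 2 kb on either side of the start. The depth recovered from the values was 28385724 reads in UT, 37493963 in Ni-E and 29933551 in Ni-W cells, and the 3-read floor was 0.0264, 0.0200 and 0.0251 RPKM. The Ni-W library differed as a whole, with 22.9% of its reads in the listed promoters against 37.6% in UT and 36.0% in Ni-E cells. Its median promoter stood at 1.12 RPKM against 1.57 and 1.39. Levels are therefore also given relative to the median of each library. Intervals are 95% Wilson intervals of the reads and cover counting error only. In UT cells, the epithelial promoter of KRT18 was at 7.26 RPKM, NKX2-1 at 2.76, EPCAM at 2.21, CDH1 at 1.02, KRT19 at 0.43 and KRT5 at 0.22. Of the fibroblast promoters, VIM, COL1A1 and PDGFRB were at 8.95, 8.74 and 6.98, PDGFRA at 2.61 and THY1 at 1.885. COL1A2, FAP, LUM, DCN and COL3A1 were at 0.476, 0.44, 0.396, 0.229 and 0.167. Of the leukocyte promoters, CD14 was at 2.06, CD68 at 0.986, CD3E at 0.273 and LYZ at 0.141. That of PTPRC had no reads, where 3 reads, the floor, would be 0.0264 RPKM and the Wilson interval ends at 0.0338.

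The receptors carried the highest H3K4me3 of the 9 genes. IGF1R was at 9.99 RPKM (9.42 to 10.6) in UT, 9.39 (8.91 to 9.89) in Ni-E and 8.66 (8.15 to 9.20) in Ni-W cells, above 91.8%, 90.8% and 98.5% of all promoters in the respective library. IGF2R was at 8.84 RPKM (8.31 to 9.41), 8.16 (7.71 to 8.62) and 4.91 (4.53 to 5.32). From UT to Ni-W cells the RPKM of IGF1R was thus multiplied by 0.867 and that of IGF2R by 0.555, where the median over promoters with at least 1 RPKM was 0.572. IGF1R thus kept most of its level in Ni-W cells, and IGF2R moved by about as much as the median promoter.

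Of the binding proteins, IGFBP3, IGFBP4, IGFBP6 and IGFBP7 had intermediate levels. IGFBP3 was at 4.25 RPKM (3.89 to 4.65) in UT, 4.56 (4.23 to 4.92) in Ni-E and 3.98 (3.64 to 4.36) in Ni-W cells, and its ratio of 0.937 for Ni-W to UT exceeded those of 93.0% of promoters with at least 1 RPKM. IGFBP7 was at 4.34 RPKM (3.98 to 4.74), 3.01 (2.75 to 3.30) and 3.78 (3.45 to 4.15). Its Ni-E to UT ratio, 0.694, was among the lowest, with 2.12% of promoters lower, while its Ni-W to UT ratio of 0.871 exceeded those of 90.6%. IGFBP7-AS1, whose window overlaps with it and shares its reads, had 4.30, 3.03 and 3.92 RPKM.

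IGFBP6 had 5.99 RPKM (5.56 to 6.46) in UT, 5.39 (5.04 to 5.78) in Ni-E and 2.85 (2.56 to 3.17) in Ni-W cells, and its Ni-W to UT ratio of 0.476 was the lowest of the 9. IGFBP4 was at 5.77 RPKM (5.34 to 6.23), 4.65 (4.31 to 5.01) and 3.70 (3.37 to 4.06). IGFBP6 carried this level with 9 CG in the stretch printed above, and IGFBP5, with 8 CG, was among the lowest. IGFBP5 was at 1.08 RPKM (0.908 to 1.29), 1.11 (0.951 to 1.29) and 0.601 (0.478 to 0.757), and IGFBP2 at 1.98 (1.74 to 2.26), 1.88 (1.67 to 2.11) and 1.04 (0.869 to 1.23). Both had a Ni-W to UT ratio near that of the whole library, 0.555 and 0.523.

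IGFBP1 had little H3K4me3 in any library, with 11 reads for UT, 17 for Ni-E and 44 for Ni-W cells, or 0.097 RPKM (0.0541 to 0.173), 0.113 (0.0708 to 0.182) and 0.367 (0.274 to 0.493). The Ni-W to UT ratio was 3.78 (1.95 to 7.33), and the gene moved from above 6.42% to above 37.4% of promoters. Among 1617 promoters chosen for 6 to 16 UT reads, the median was 13 reads in UT, 24 in Ni-E and 17 in Ni-W cells. These reads are not scaled to depth, and choosing by low UT reads in itself favours higher values in the other libraries. Of these promoters, 4.70% had at least the 44 Ni-W reads of IGFBP1.

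**Figure D4:**
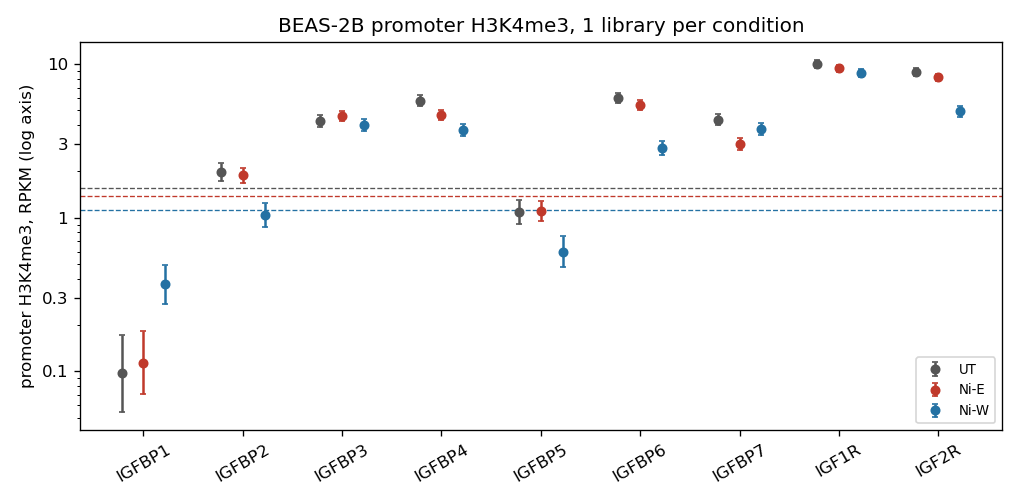
Promoter H3K4me3 of each gene in BEAS-2B cells, in RPKM on a log axis, with grey for UT, red for Ni-E and blue for Ni-W cells; bars are 95% Wilson intervals of the reads and dashed lines the median promoter of each library. IGF1R and IGF2R are the highest in UT cells, at 9.99 and 8.84 RPKM, and IGFBP1 is the lowest and the single gene whose blue point, at 0.367, is above the others.

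Without replicates, a promoter was counted as past the threshold when its level over the library median differed by at least 1.5-fold, among promoters with at least 1 RPKM in either library, which includes all but IGFBP1. For Ni-E vs UT this applied to 0 of the 8 genes, against 1.41% of all promoters. For Ni-W vs UT it applied to 1 of 8, IGFBP6, lower by 1.501-fold and thus at the limit, against 22.8%. For Ni-W vs Ni-E it applied to 2 of 8, against 34.6%, namely IGFBP6, 1.53-fold lower, and IGFBP7, 1.56-fold higher. With 8 genes, these counts are within about 1 gene of the background shares. With quantile normalization they were 3 of 8 against 13.3% and 2 of 8 against 13.8%, so that the position relative to the background depends on the scaling. The chromatin dynamic score (the difference of square roots of the level over the library median) for Ni-W vs UT was highest for IGFBP1 (0.324), IGF1R (0.258), IGFBP3 (0.240) and IGFBP7 (0.175), and lowest for IGFBP6 (−0.359) and IGF2R (−0.280). Counting error gives this score a standard error of 0.0572. Without scaling to the median, the scores of IGF1R, IGFBP3 and IGFBP7 were below 0, at −0.217, −0.0665 and −0.139, so that their direction depends on the scaling.

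RNA in RT4 and H3K4me3 in BEAS-2B cells come from different lines and washout times, so their values stand side by side without a test. IGFBP5, called in RT4 Ni-W cells, had a Ni-W to UT ratio in BEAS-2B H3K4me3 of 0.555, near the median promoter at 0.572, and of 0.778 once scaled to the library medians. IGFBP6, with the largest RNA fold in RT4 cells, had 0.476 and 0.666. IGFBP1 had 0 to 2 estimated counts per RT4 library. Its H3K4me3 in BEAS-2B cells was low, at 0.097 RPKM in UT and 0.367 in Ni-W cells, with a ratio of 3.78.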

How the data were processed

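RNA-Seq of RT4 cells and H3K4me3 ChIP-Seq of BEAS-2B cells were analysed; inputs were not used here. For RNA, the authors deposited RSEM expected counts, TPM and FPKM per gene. STAR, hg19 and DESeq2 are named in the study's methods, without saying if the RSEM tables were made from the same alignments. The deposited expected counts were rounded and tested with edgeR 4.0.16 (quasi-likelihood test, TMM factors, filterByExpr, Benjamini-Hochberg) in 1 model of 3 groups without a block; calls needed an adjusted p below 0.05 and at least 1.5-fold. The deposited TPM served for levels and for limma 3.58.1 on log2(TPM + 1), and the deposited FPKM entered no test. DESeq2 1.42.0, RLE factors, other filters and pseudocounts, a replicate block and leaving out each library were alternatives. The authors describe the cultures as biological replicates, and p-values measure the spread between 2 libraries per group.

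For ChIP-Seq, the authors used BWA and hg38, removed redundant copies of reads, and deposited promoter RPKM without peak calling. The methods describe 2 biological replicates of ChIP, and whether the files pool them is not stated. The deposited RPKM were whole multiples of the worth of 1 read (100%, within 0.1 read), which gave reads and depth. Ratios, scores and 95% Wilson intervals were computed in Python 3.11.15, with no test.

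The 9 genes and all lists were chosen with earlier results of these data known. Named besides them were the 3 genes most like a called member (at least 5 CPM) and called genes of each list, at most 3 per list and comparison. Promoter sequences are from RefSeq (GRCh38.p14), where 7 members matched. Scripts were tested on simulated data.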

Additional observations from a re-analysis of the deposited data

How the results depend on the processing

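Over the alternatives, 318 of 357 RT4 log2 fold changes of the 8 tested genes kept their direction and side of the threshold, 11 lost a call and 13 gained one. A further 15, none of them called, changed sign, each with a library left out. For Ni-E vs UT, leaving out libraries gave ranges of −0.0298 to 0.0716 for IGFBP4, −0.0654 to 0.113 for IGFBP5 and −0.30 to 0.85 for IGF2R. For Ni-W vs UT they were −1.07 to 0.42 for IGFBP7 and −0.80 to 0.81 for IGF2R, and for Ni-W vs Ni-E −0.0089 to 0.40 for IGFBP3, −0.35 to 0.71 for IGFBP6, −0.33 to 0.20 for IGF1R and −0.99 to 0.54 for IGF2R. For Ni-E vs UT (0 genes called), DESeq2 called 1 and edgeR without a filter 1, IGFBP6 in each case. For Ni-W vs UT (1 called, IGFBP5), DESeq2 called 3 (IGFBP3, IGFBP5 and IGFBP6) and edgeR without a filter 2 (IGFBP5 and IGFBP6). Called were 0 with at least 10 counts in every library (IGFBP5 adjusted p = 0.0548, edgeR), 0 with limma on log2(TPM + 1), log2(TPM + 0.1) or without a TPM filter (adjusted p = 0.148, 0.160 and 0.184), 0 with only the 2 groups compared, and 0 to 0 with any replicate left out, where the lone sample of a group is assumed to vary like the others. For Ni-W vs Ni-E (0 called), DESeq2 called 1, IGFBP5. The cause was not tested, other than fewer samples where libraries were left out. Over all genes, the 314, 87 and 0 calls became 780, 483 and 163 with DESeq2, 449, 193 and 14 without a filter, 209, 54 and 0 with 10 counts, 170, 79 and 0 with limma on log2(TPM + 1), 173, 77 and 11 on log2(TPM + 0.1), 120, 68 and 0 without its TPM filter, 354, 0 and 0 with only 2 groups, and 0 to 320, 0 to 38 and 0 with a library left out. The titles of replicate 2 carry only a suffix for a duplicate, so the samples share a number rather than a stated pairing. Deviations of the same number correlated at 0.66, 0.76 and 0.69 between conditions, and with this replicate block 4 genes (IGFBP2, IGFBP3, IGFBP6, IGFBP7), 3 (IGFBP3, IGFBP5, IGFBP6) and 1 (IGFBP5) were called, of 1833, 1243 and 655 genes in all.

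In BEAS-2B cells, chromatin dynamic scores without median scaling are differences of square roots of RPKM. This is another unit than that of the main scores, so their shifts include that change. Of 54 scores under another scaling, 17 moved by less than the 95% range of counting error, 23 moved by more and 14 changed sign. Without median scaling, IGFBP2 (−0.0367), IGFBP6 (−0.125), IGF1R (−0.0962) and IGF2R (−0.118) did so for Ni-E vs UT, IGFBP3 (−0.0665), IGFBP7 (−0.139) and IGF1R (−0.217) for Ni-W vs UT, and IGFBP3 (−0.140) and IGF1R (−0.121) for Ni-W vs Ni-E. With quantile normalization, IGFBP6 (−0.0586), IGF1R (−0.0405) and IGF2R (−0.0478) did so for Ni-E vs UT, and IGFBP4 for Ni-W vs UT (0.107) and Ni-W vs Ni-E (0.258). As log2 ratios of (RPKM + 1), another unit of which only the direction was compared, 26 of 27 kept it and IGFBP6 for Ni-E vs UT (−0.0229) did not. The number past 1.5-fold for Ni-W vs UT (1) became 5 of 8, all lower, without scaling, where 73% of all promoters passed, 3 of 8 with quantile normalization (13.3% of all), and 2 of 9 with at least 3 reads in either library (34.1%). For Ni-W vs Ni-E (2) it became 4 of 8 without scaling (66.4%) and 3 of 9 with at least 3 reads (38.7%). Depth limits IGFBP1 in both assays and IGFBP7 in RT4 cells.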
